A study of Mus musculus with 9 samples.

Results

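The hedgehog signalling genes described here are 9 of the 38560 genes of a count table from fetal mouse testis: the ligand gene Dhh, the receptor gene Ptch1, the signal transducer gene Smo, the co-receptor genes Gas1 and Cdon, the ligand-binding inhibitor gene Hhip, and the transcription factor genes Gli1, Gli2 and Gli3. They were chosen by symbol, each matched 1 Ensembl gene of the table, and all 9 passed the filter on low counts. RNA was sequenced from 3 cell populations that the labels name Sertoli, Leydig and Interstitial, each enriched by flow cytometry from gonads of Sf1-eGFP embryos at 12.5 dpc (days post coitum) in which testis cords were visible. All 3 populations share that strain, age and tissue, and no agent or mutation separates them. The reporter is driven from Nr5a1, which encodes steroidogenic factor SF1, CD31 staining was used to take out germ and endothelial cells, and each library is a pool over about 10 sorts of 4 to 10 litters each. Per the labels' protocols, a pool A, a pool B and a mixture of the pair were prepared, 100 ng of RNA each. By elimination replicate C is taken as the mixture, which the labels do not state. Comparisons therefore use A and B (n = 2), while the value of C is printed beside them.

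Hedgehog ligands are secreted proteins that bind Patched receptors on neighbouring cells. Without ligand, Patched holds back Smoothened, the protein of Smo; with ligand, Smoothened acts through the primary cilium on the Gli transcription factors. Ptch1, Gli1 and Hhip are themselves transcribed in response to Gli activity, so they are widely used as readouts of the pathway, and Ptch1 and Hhip proteins in turn limit it. In the fetal testis, desert hedgehog from Sertoli cells is known to be needed for the differentiation of fetal Leydig cells and of the peritubular cells around the cords.

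Levels are given as CPM (counts per 1000000 reads in genes, TMM-normalised) when 1 gene is compared between populations. RPKM (the same divided by the exon length in kilobases) is used when genes are compared with each other. Exon length is that of all annotated exons of a gene merged, for example 14185 bases for Ptch1 and 5621 for Smo. The transcripts present may be shorter, so ranks and ratios between genes depend on this choice. A gene is called when edgeR's quasi-likelihood test gave an adjusted p under 0.05, with Benjamini-Hochberg adjustment over the 18048 genes tested. Differences are on the log2 scale with their standard error (SE). With 2 pools a population, these p-values measure the spread between pools, not between animals. In such bulk samples, fewer expressing cells and less RNA per cell cannot be told apart.

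Sequencing gave 33123254 to 39244060 gene-assigned reads a library, so 3 reads, the limit that a count of 0 allows, are 0.0764 to 0.0906 CPM. Marker genes were summed per library as a check of the labels. Sertoli markers (12 genes) summed to 4330 to 4590 CPM in Sertoli, 1320 to 1380 in Leydig and 218 to 251 in Interstitial. Markers of interstitial stroma (9 genes) summed to 456 to 479, 1670 to 1870 and 1510 to 1610 CPM in the same order. Fetal Leydig markers (6 genes) overlapped between the libraries labelled Sertoli (257 to 309 CPM) and Leydig (236 to 446) and were lower in Interstitial (41.7 to 65), so these genes do not set the Leydig label apart from Sertoli. Within Leydig, replicate A had the higher sum of those markers (446 against 236 CPM in B) and replicate B the higher sums of germ cell markers (218 against 53.2) and erythroid markers (247 against 73.2). Interstitial held the most germ cell (790 to 901 CPM) and erythroid (8420 to 9260) marker reads. Endothelial markers (12 genes) stood at 60.4 to 63.6 CPM in Sertoli, 293 to 332 in Leydig and 286 to 332 in Interstitial.

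Of the 9 genes, Dhh differed most between the populations, highest in Sertoli, intermediate in Leydig and lowest in Interstitial. It encodes desert hedgehog and lies on chromosome 15, 98891152 to 98898540, minus strand (ENSMUSG00000023000; all coordinates on GRCm38). Its levels were 440, 438 and 408 CPM in Sertoli replicates A, B and C, 116, 119 and 118 CPM in Leydig, and 14.4, 17.2 and 15.6 CPM in Interstitial. No library of one population reached the range of another, and every gap between populations was far wider than the spread within them. The means over A and B were 439 ± 1.62 CPM in Sertoli, 118 ± 2.14 in Leydig and 15.8 ± 1.96 in Interstitial (SD, n = 2). Dhh was 3.74-fold lower in Leydig than in Sertoli (log2 difference -1.90 ± 0.08, edgeR adjusted p 1.35e-06). It was 7.44-fold higher in Leydig than in Interstitial (2.90 ± 0.09, edgeR adjusted p 4.74e-07) and 27.8-fold lower in Interstitial than in Sertoli (-4.80 ± 0.09, edgeR adjusted p 6.34e-09). Per length, Dhh led the 9 genes in Sertoli at 99.9 ± 0.367 RPKM, with Smo next at 25.2 ± 0.635. In Leydig it stood level with Gas1 (both 26.7 RPKM), below Smo, and in Interstitial it was the eighth of the 9 at 3.60 ± 0.446 RPKM. An exon of Dhh overlaps one of Rhebl1 on the same strand in the annotation. Rhebl1 had 6.30, 6.10 and 17.5 CPM in Sertoli, Leydig and Interstitial, an order unlike that of Dhh.

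The Dhh signal outside Sertoli was set beside that of Sertoli marker genes in the same libraries. The Leydig mean of Dhh was 26.8% of its Sertoli mean (26.4 to 27.1% over the 3 libraries). The 12 Sertoli markers lay between 26.6% (Hsd17b3) and 43.3% (Cyp26b1), with Amh, the gene of anti-Müllerian hormone, at 27.0% and the sex-determining factor gene Sox9 at 36.2%. In Interstitial, Dhh was at 3.60% of its Sertoli level and Amh also at 3.60%, while the markers ran from 3.01% (Cst9) to 54.4% (Dmrt1, which germ cells also express). Dhh thus lay near the low end of the Sertoli marker list in both populations, with 2 markers below it in Leydig and 3 in Interstitial. The part of Sertoli cells or their RNA in the Leydig and Interstitial values of Dhh was not tested. Dhh is also known from Schwann cells, and of 7 Schwann and neural crest markers Sox10 followed a like order (40.1, 10.7 and 1.94 CPM in Sertoli, Leydig and Interstitial). The 7 markers summed to 223 to 226 CPM in Sertoli, 73.1 to 75.4 in Leydig and 61.2 to 75.7 in Interstitial. Foxd3, a transcription factor gene of the neural crest, had 4 reads or fewer in every library.

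**Figure D1:**
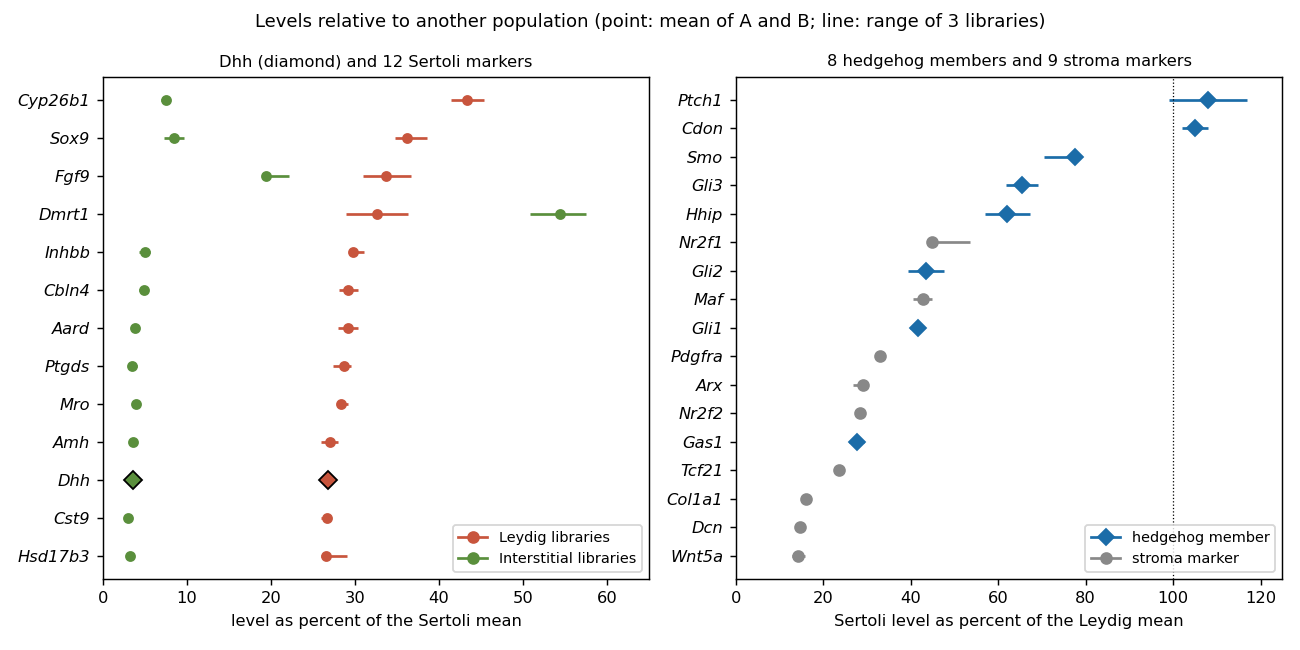
Left, Dhh (diamonds) and 12 Sertoli markers (circles), each as percent of its own Sertoli mean, in Leydig (red) and Interstitial (green) libraries. Right, 8 other hedgehog genes (blue diamonds) and 9 stroma markers (grey circles), each with its Sertoli level as percent of its Leydig mean. Points are means over A and B and lines span the 3 libraries. Dhh sits at 26.8% and 3.60%, next to Amh, while Ptch1 (108%) and Cdon (105%) lie right of the dotted line at 100% and all stroma markers lie at 44.9% or less.

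The other ligand genes were close to the detection limit, and nearly all hedgehog ligand reads came from Dhh. Shh, the sonic hedgehog gene, had 6 to 28 reads a library and means of 0.546, 0.631 and 0.203 CPM in Sertoli, Leydig and Interstitial. Its excess in Leydig over Interstitial (1.65 ± 0.41, edgeR adjusted p 0.0106) rested on few reads and was not called without Leydig replicate B (1.49) or without Interstitial replicate A (1.26). The excess of Shh in Sertoli over Interstitial (-1.44 ± 0.42, edgeR adjusted p 0.015) was likewise not called without Sertoli replicate B (-1.37) or Interstitial replicate A (-1.01). Ihh, the Indian hedgehog gene, had 1 to 19 reads a library. It was called only between Interstitial (0.376 CPM) and Sertoli (0.0872 CPM), at 2.06 ± 0.63 (edgeR adjusted p 0.0195), and not without Sertoli replicate B (1.37) or Interstitial replicate A (1.72). Its Sertoli and Interstitial libraries overlapped once replicate C was counted.

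The promoters of Dhh, Ptch1 and Hhip are printed because these 3 genes had 3 different orders over the populations. Each is the RefSeq window of 250 bases before and 50 after the start site on GRCm38.p6, 5′ to 3′ on the gene's own strand: chr15:98898491-98898790 for Dhh, chr13:63565686-63565985 for Ptch1 (inside the annotated gene, whose longest transcript starts farther out) and chr8:80057959-80058258 for Hhip, all on the minus strand. Capitals mark the hexamer GGGTGG or its reverse complement CCACCC, the centre of the known Gli binding consensus TGGGTGGTC.
Dhh: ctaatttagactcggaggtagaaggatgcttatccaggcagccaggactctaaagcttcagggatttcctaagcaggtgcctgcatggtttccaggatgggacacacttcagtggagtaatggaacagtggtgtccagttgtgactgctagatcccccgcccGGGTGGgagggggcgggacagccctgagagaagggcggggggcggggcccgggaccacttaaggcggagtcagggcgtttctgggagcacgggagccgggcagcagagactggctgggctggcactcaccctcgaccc
Ptch1: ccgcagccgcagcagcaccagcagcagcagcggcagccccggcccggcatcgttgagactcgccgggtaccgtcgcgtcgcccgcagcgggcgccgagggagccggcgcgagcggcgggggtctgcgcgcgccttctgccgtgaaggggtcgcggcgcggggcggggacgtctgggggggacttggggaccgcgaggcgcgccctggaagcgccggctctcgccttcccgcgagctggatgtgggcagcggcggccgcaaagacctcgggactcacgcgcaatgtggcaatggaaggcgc
Hhip: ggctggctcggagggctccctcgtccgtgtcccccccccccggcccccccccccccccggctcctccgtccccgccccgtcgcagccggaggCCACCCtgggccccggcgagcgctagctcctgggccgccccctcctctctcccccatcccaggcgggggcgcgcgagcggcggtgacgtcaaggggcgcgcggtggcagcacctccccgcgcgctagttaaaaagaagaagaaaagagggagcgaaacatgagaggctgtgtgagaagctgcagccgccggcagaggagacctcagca
RefSeq windows were found for 8 of the 9 genes, all but Gli1. The full consensus, searched on both strands as TGGGTGGTC and GACCACCCA, was in none of the 8 and in 83 of all 32851 windows (0.253%). The hexamer was in 31.5% of all windows and in 5 of the 8: once in Dhh, 88 bases before the start, once in Hhip, 158 bases before it, once each in Gli3 and Smo, and at 2 places in Gli2. The windows of Ptch1, Gas1 and Cdon held none. Like that of Ptch1, the Cdon window (chr9:35451826-35452125, plus strand) lies inside the annotated gene, which starts at 35421128. So does the Gli3 window (chr13:15463473-15463772, plus strand), whose annotated gene starts at 15463235. A match of 6 letters is a description of the sequence and no evidence of binding.

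Ptch1, the receptor and a transcriptional target of the pathway, did not separate Sertoli from Leydig and was lower in Interstitial. The gene is on chromosome 13, 63508328 to 63573598, minus strand (ENSMUSG00000021466). Its levels were 202, 238 and 207 CPM in Sertoli replicates A, B and C, 209, 198 and 210 CPM in Leydig, and 114, 117 and 108 CPM in Interstitial. The Sertoli and Leydig libraries overlapped and the Interstitial libraries lay below all of them. Leydig and Sertoli means were 204 ± 8.23 and 220 ± 25.8 CPM (SD, n = 2), a log2 difference of -0.11 ± 0.08 that was not called (edgeR adjusted p 0.329) and that turned to 0.01 without Sertoli replicate B. Ptch1 was 1.76-fold higher in Leydig than in Interstitial (0.82 ± 0.08, edgeR adjusted p 0.000127), where the mean was 115 ± 1.49 CPM. It was 1.91-fold higher in Sertoli than in Interstitial (-0.93 ± 0.08, Interstitial over Sertoli, edgeR adjusted p 1.89e-05). The annotation has no exon of another gene over those of Ptch1.

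**Figure D2:**
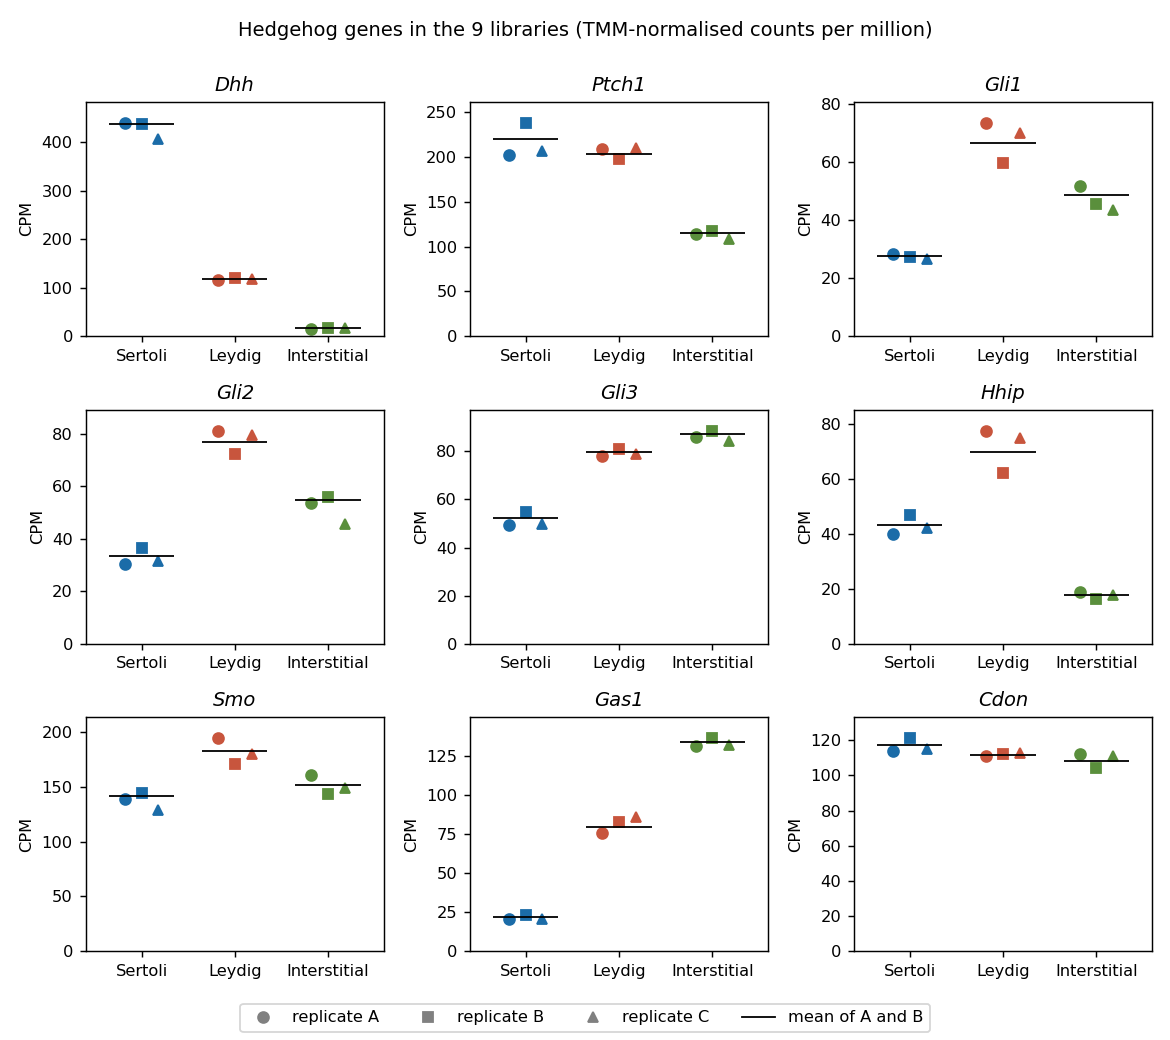
Each panel shows 1 hedgehog gene in TMM-normalised CPM (vertical axis, from 0) for replicates A (circles), B (squares) and C (triangles) of Sertoli (blue), Leydig (red) and Interstitial (green); bars are means of A and B. Dhh steps down over the 3 populations, Ptch1 overlaps between Sertoli and Leydig, Hhip is highest in Leydig, Gas1 steps up towards Interstitial, and Cdon lies between 104 and 121 CPM in all 9 libraries.

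Smo, which encodes the transducer that Patched restrains, differed little between the populations. It is on chromosome 6, 29735503 to 29761365, plus strand (ENSMUSG00000001761). Its levels were 139, 144 and 129 CPM in Sertoli replicates A, B and C, 194, 171 and 180 CPM in Leydig, and 161, 143 and 149 CPM in Interstitial. Leydig was above both others in every library, and Sertoli and Interstitial overlapped. The difference was 0.37 ± 0.08 for Leydig over Sertoli (edgeR adjusted p 0.00751), 1.29-fold, but it was not called without Sertoli replicate A (0.34, edgeR adjusted p 0.0647). For Leydig over Interstitial, Smo was at 0.27 ± 0.08 (edgeR adjusted p 0.0267), 1.20-fold. That call was lost without Leydig replicate A (0.18, edgeR adjusted p 0.152) and without Interstitial replicate B (0.17, edgeR adjusted p 0.228), and also with scaling by library size alone (0.20, edgeR adjusted p 0.0838) and with lanes 1 and 2 alone (0.21, edgeR adjusted p 0.0776). Interstitial and Sertoli were not separated by the 6 libraries (0.10 ± 0.08, edgeR adjusted p 0.32). Smo was called higher in Interstitial than in Sertoli with all 9 libraries (0.19) and with library size alone (0.27). Per length, Smo was among the leading genes everywhere: first in Leydig (32.5 ± 2.93 RPKM) and second in Sertoli and in Interstitial (27.0 ± 2.27 RPKM).

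Gas1 and Cdon encode cell-surface proteins that help hedgehog ligands bind Patched, and they differed from each other in pattern. Gas1, on chromosome 13, 60174405 to 60177365, minus strand (ENSMUSG00000052957), had 20.7, 23.1 and 20.5 CPM in Sertoli replicates A, B and C, 75.8, 82.6 and 86.0 CPM in Leydig, and 131, 136 and 132 CPM in Interstitial. The populations did not overlap, and their order was the reverse of that of Dhh. Gas1 was 3.62-fold higher in Leydig than in Sertoli (1.85 ± 0.08, edgeR adjusted p 1.53e-06). It was 1.69-fold lower in Leydig than in Interstitial (-0.75 ± 0.07, edgeR adjusted p 0.000117) and 6.10-fold higher in Interstitial than in Sertoli (2.61 ± 0.08, edgeR adjusted p 3.66e-08). In Interstitial, Gas1 was the leading gene of the 9 per length, at 45.1 ± 1.28 RPKM.

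Cdon, on chromosome 9, 35421128 to 35507652, plus strand (ENSMUSG00000038119), was the one gene of the 9 with no call in any comparison. It had 114, 121 and 115 CPM in Sertoli replicates A, B and C, 111, 112 and 113 CPM in Leydig, and 112, 104 and 111 CPM in Interstitial. The means were within 1.09-fold of each other (117 ± 5.00, 112 ± 0.596 and 108 ± 5.68 CPM; SD, n = 2). Log2 differences were -0.07 ± 0.06 for Leydig over Sertoli (edgeR adjusted p 0.451), 0.05 ± 0.06 for Leydig over Interstitial (0.537) and -0.12 ± 0.06 for Interstitial over Sertoli (0.132). Its sign changed in each comparison with scaling by library size alone (0.03, -0.01 and 0.05).

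Boc, the third co-receptor gene of the Gas1 and Cdon kind, was higher in Leydig (74.7 CPM) than in Sertoli (31.9 CPM), by 1.23 ± 0.11 (edgeR adjusted p 3.57e-05), and about the same in Leydig and Interstitial (73.6 CPM; 0.02 ± 0.10, edgeR adjusted p 0.888). Within each library, the summed level of Gas1, Cdon and Boc per length ran from 28.7 to 30.1 RPKM in Sertoli, 57.6 to 59.9 in Leydig and 74.6 to 75.7 in Interstitial. The make-up of that sum differed between the populations. Cdon took 50.2 to 52.1% of it in Sertoli, 24.5 to 25.2% in Leydig and 17.8 to 19.4% in Interstitial. Gas1 took 23.8 to 25.9%, 43.8 to 48.5% and 58.3 to 61.0%. The share of Boc lay between 20.9 and 31.5% throughout. Per length, Cdon thus made up the most of the sum in Sertoli and Gas1 in Interstitial, and the shares of Gas1 and of Cdon did not overlap between populations. These shares restate the gene levels above and were given no test of their own.

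Hhip, which encodes a membrane protein that binds hedgehog ligand and takes it out of play, was highest in Leydig and lowest in Interstitial. The gene is on chromosome 8, 79965851 to 80058006, minus strand (ENSMUSG00000064325). Its levels were 39.9, 47.0 and 42.1 CPM in Sertoli replicates A, B and C, 77.7, 62.3 and 75.0 CPM in Leydig, and 19.0, 16.2 and 17.7 CPM in Interstitial. The 3 populations did not overlap. Hhip was 1.61-fold higher in Leydig (70.0 ± 10.9 CPM) than in Sertoli (43.5 ± 5.03 CPM; SD, n = 2), at 0.69 ± 0.13 (edgeR adjusted p 0.00282). It was 3.97-fold higher in Leydig than in Interstitial (17.6 ± 2.0 CPM), at 1.99 ± 0.13 (edgeR adjusted p 1.5e-05). Interstitial was 2.46-fold below Sertoli (-1.30 ± 0.13, edgeR adjusted p 4.49e-05). Leydig replicate A was above replicate B for Hhip, as for Gli1, Gli2, Smo and Ptch1, and below it for Dhh, Gli3, Gas1 and Cdon. Replicate A also had the higher sums of fetal Leydig, stroma, perivascular and smooth muscle, mesothelial and Sertoli markers. The sums of the other marker lists were higher in replicate B. Whether these go together was not tested. Per length, Hhip was the lowest of the 9 genes in each population (4.79 RPKM in Sertoli, 7.71 in Leydig, 1.94 in Interstitial). In Sertoli it lay within the spread of Gli2 (4.86 ± 0.649 RPKM).

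The 3 Gli genes were lower in Sertoli than in the other populations. Gli1 encodes an activator that is itself induced by the pathway and lies on chromosome 10, 127329882 to 127341974, minus strand (ENSMUSG00000025407). It had 28.2, 27.1 and 26.4 CPM in Sertoli replicates A, B and C, 73.4, 59.7 and 69.9 CPM in Leydig, and 51.7, 45.4 and 43.3 CPM in Interstitial. No library of one population overlapped another. Gli1 was 2.41-fold higher in Leydig than in Sertoli (1.27 ± 0.11, edgeR adjusted p 3.77e-05) and 1.76-fold higher in Interstitial than in Sertoli (0.81 ± 0.11, edgeR adjusted p 0.000248). Between Leydig and Interstitial it differed by 0.45 ± 0.11 (edgeR adjusted p 0.0087), 1.37-fold. That call was lost without Interstitial replicate B (0.35, edgeR adjusted p 0.0779), and without Leydig replicate A the value was 0.30. On the opposite strand Gli1 overlaps exons of Arhgap9, which stayed at 1.96 CPM or less in every library.

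Gli2 encodes the main activator of the pathway and lies on chromosome 1, 118834132 to 119053619, minus strand (ENSMUSG00000048402). It had 30.2, 36.5 and 31.4 CPM in Sertoli replicates A, B and C, 81.1, 72.4 and 79.4 CPM in Leydig, and 53.7, 55.7 and 45.6 CPM in Interstitial. As for Gli1, the populations were apart in the order Leydig, Interstitial, Sertoli. The differences were 1.20 ± 0.10 for Leydig over Sertoli (edgeR adjusted p 2.88e-05), 0.49 ± 0.10 for Leydig over Interstitial (edgeR adjusted p 0.00392) and 0.71 ± 0.10 for Interstitial over Sertoli (edgeR adjusted p 0.000291). Gli3 encodes the factor that acts mainly as a repressor when ligand is absent and lies on chromosome 13, 15463235 to 15730026, plus strand (ENSMUSG00000021318). It had 49.2, 55.0 and 49.6 CPM in Sertoli replicates A, B and C, 78.1, 81.2 and 78.9 CPM in Leydig, and 85.9, 88.6 and 84.2 CPM in Interstitial. Leydig and Interstitial were close but did not overlap. Gli3 was higher in Leydig than in Sertoli by 0.61 ± 0.07 (edgeR adjusted p 0.000209) and in Interstitial than in Sertoli by 0.74 ± 0.07 (edgeR adjusted p 3.12e-05). Leydig and Interstitial were not called with A and B (-0.13 ± 0.07, edgeR adjusted p 0.162), and were with all 9 libraries (-0.13, edgeR adjusted p 0.0339; 30.9% of all genes were called higher in Interstitial there), a fit in which replicate C counts as a further pool.

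The proportions of the 3 Gli genes within a library were compared per length. Their sum ran from 15.0 to 16.5 RPKM in Sertoli, 30.9 to 34.6 in Leydig and 24.1 to 27.1 in Interstitial. Gli3 took 33.8 to 34.8% of it in Sertoli, 23.5 to 27.3% in Leydig and 33.0 to 36.4% in Interstitial, so that the Leydig libraries had the smallest Gli3 share and Sertoli and Interstitial overlapped. Gli1 took 32.9 to 37.2%, 38.6 to 42.4% and 34.3 to 38.2%, and Gli2 29.0 to 32.3%, 34.1 to 34.2% and 27.6 to 30.7%. In Sertoli the mean levels per length were 5.54 RPKM for Gli1, 4.86 for Gli2 and 5.43 for Gli3.

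**Figure D3:**
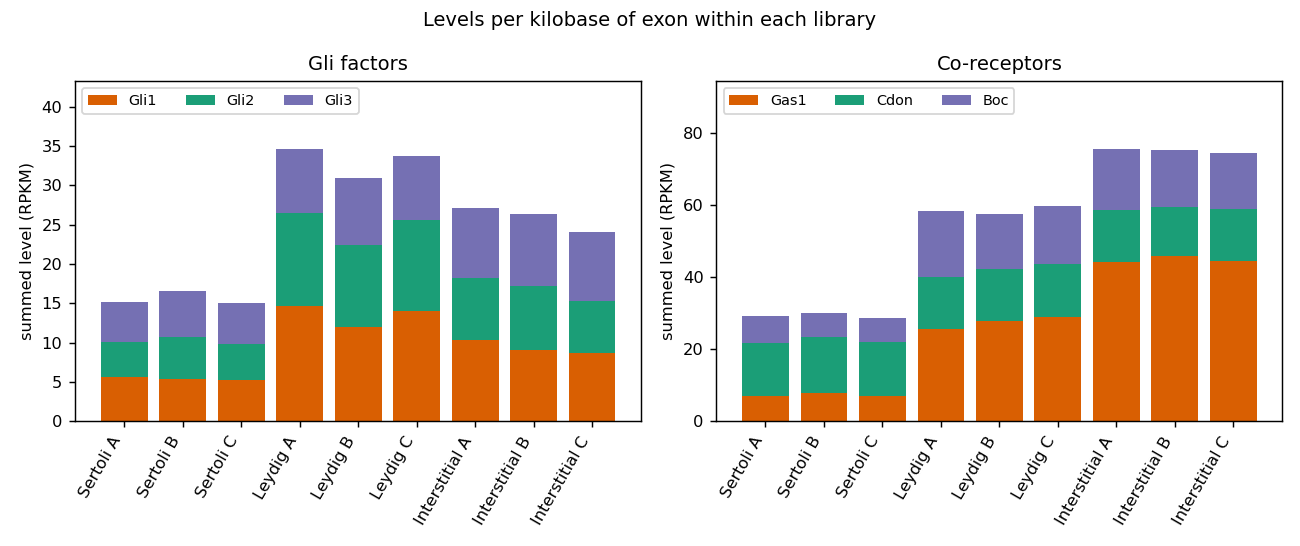
Stacked bars give the level per kilobase of exon (RPKM, vertical axes from 0) of Gli1, Gli2 and Gli3 (left) and of Gas1, Cdon and Boc (right) in each of the 9 libraries. Gli sums are lowest in Sertoli (15.0 to 16.5 RPKM) and highest in Leydig (30.9 to 34.6), while co-receptor sums climb from Sertoli (28.7 to 30.1) to Interstitial (74.6 to 75.7), with Gas1 taking the growing share.

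Ptch1, Gli1 and Hhip are all known targets of the pathway, and their ratios per length differed between the populations. Gli1 stood at 0.323 to 0.397 of Ptch1 in Sertoli, 0.857 to 0.996 in Leydig and 1.11 to 1.28 in Interstitial. Hhip stood at 0.309 to 0.318 of Ptch1 in Sertoli, 0.493 to 0.580 in Leydig and 0.217 to 0.260 in Interstitial. Hhip over Gli1 was 0.778 to 0.956, 0.575 to 0.590 and 0.197 to 0.225, and Ptch1 over Smo 0.575 to 0.655, 0.427 to 0.462 and 0.282 to 0.323. In each of these 4 ratios the 3 populations did not overlap, but gaps of that kind were not counted for ratios of other genes. The ratios restate the gene levels above and were given no test of their own. Replicate C, taken as a mixture of A and B, adds no independent library to them. Leydig and Sertoli thus had like amounts of Ptch1, while Gli1 and Hhip were higher in Leydig. Interstitial had more Gli1 than Sertoli but less Ptch1 and less Hhip.

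In Leydig against Sertoli, 6 of the 9 hedgehog genes were called higher in Leydig (Gli1, Gli2, Gli3, Hhip, Smo and Gas1), 1 higher in Sertoli (Dhh), and 2 were not called (Ptch1 and Cdon). Of all genes tested, 16.9% were called higher in Leydig and 20.6% higher in Sertoli, 37.5% in all. In Leydig against Interstitial, 6 were higher in Leydig (Dhh, Ptch1, Gli1, Gli2, Hhip and Smo), 1 higher in Interstitial (Gas1) and 2 not called (Gli3 and Cdon), against 22% and 23.2% of all genes, 45.1% in all. In Interstitial against Sertoli, 4 were higher in Interstitial (Gli1, Gli2, Gli3 and Gas1), 3 higher in Sertoli (Dhh, Ptch1 and Hhip) and 2 not called (Smo and Cdon), against 32.7% and 29.1% of all genes, 61.8% in all. The last count is close to what the table as a whole shows. Median log2 differences of the 9 genes were 0.61, 0.45 and 0.10 in the 3 comparisons, beside -0.005, 0.01 and 0.043 over all genes tested. Without Interstitial replicate B, 4 in place of 6 were called higher in Leydig than in Interstitial. Scaling by library size alone kept the hedgehog calls of Leydig against Sertoli, but moved the share of all calls that were higher in Leydig from 45.1 to 58.8%, and the share higher in Interstitial than in Sertoli from 52.9 to 65.2%. The 3 comparisons share libraries, so their calls are not independent. Without overlap between 3 libraries and 3 were 57.8%, 65.5% and 74.6% of all genes, so a gap of that kind alone was common in this table.

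**Figure D4:**
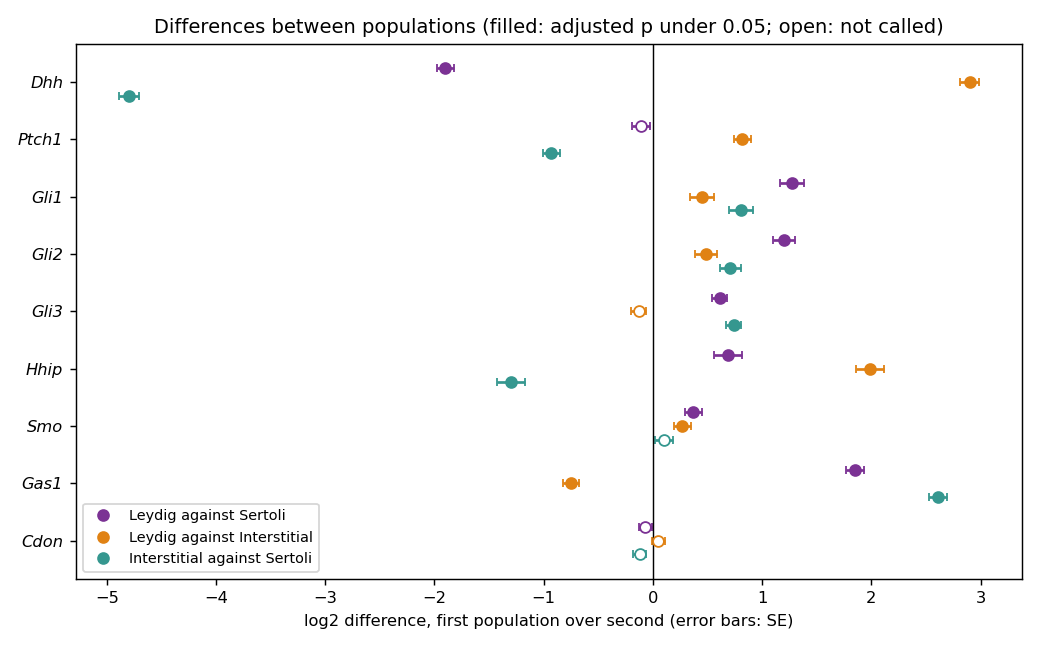
Log2 differences (horizontal axis) of the 9 hedgehog genes for Leydig against Sertoli (purple), Leydig against Interstitial (orange) and Interstitial against Sertoli (teal), with bars of 1 SE; filled points were called and open points were not. Dhh spans -4.80 to 2.90, Gas1 -0.75 to 2.61, and Cdon stays within -0.12 to 0.05.

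The other hedgehog genes were also set beside markers of interstitial stroma, since both were mostly higher outside Sertoli. All 9 stroma markers were called lower in Sertoli than in Leydig, where their Sertoli level was 14.2% (Wnt5a) to 44.9% (Nr2f1) of the Leydig level. Gas1 (27.7%), Gli1 (41.6%) and Gli2 (43.5%) lay within that range. Hhip (62.1%), Gli3 (65.4%), Smo (77.5%), Cdon (105%) and Ptch1 (108%) lay above all 9 markers. Against Interstitial, the Sertoli level of Hhip was 247% and that of Ptch1 191%, while the stroma markers were at 7.99 to 64.1%. The Interstitial level as percent of Leydig was 25.2% for Hhip and 56.7% for Ptch1, below all 9 stroma markers (59.1 to 184%), and 169% for Gas1, within them. Hhip and Ptch1 thus did not share the population order of the stroma list. Summed markers of some other cell types were also higher outside Sertoli, as the Gli genes were. Markers of mesothelium (5 genes) summed to 7.56 to 8.63, 98.1 to 109 and 147 to 182 CPM in Sertoli, Leydig and Interstitial, and macrophage markers (6 genes) to 1.21 to 1.87, 10.8 to 19.5 and 40.2 to 62.8 CPM. Perivascular and smooth muscle markers (7 genes) summed to 179 to 198, 305 to 356 and 242 to 276 CPM. Acta2, Tagln, Des and Pdgfrb had the order of that sum, which is also the order of Gli1 and Gli2. Cspg4 (86.6, 80.8 and 47.6 CPM), Myh11 (11.8, 17.7 and 8.27) and Rgs5 (1.55, 4.24 and 11.2) did not. The part that the mix of cell types in each population has in these levels was not tested.

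Genes whose profile over the 6 libraries of A and B was most like that of a hedgehog gene were taken from 11561 genes with a mean of at least 5 CPM, by the Euclidean distance between centred log2 CPM. Nearest to Dhh were Amh (0.124), Col9a3 (0.149), Kctd14 (0.166), Shbg (0.194) and Aard (0.201). Nearest to Ptch1 were Cspg4 (0.103), Tmx3, Sema6d, Scarb2 and Plcb4 (0.167), and nearest to Gli1 were Ddah2 (0.0732), Mest, Slit2, Lrrc17 and Arhgap20 (0.143). Hhip had no gene as close: C7 (0.374), Kcnj3, Prokr2, Kcns2 and Tspan11 (0.459) came first. Among the hedgehog genes themselves, Gli2 was the nearest to Gli1 (0.320, rank 48 of 11561), and Ptch1 was the nearest to Hhip (1.21, rank 155). These distances describe likeness over 3 populations and carry no test.

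Of 6 genes for ligand maturation and release, 1 was called higher in Sertoli than in Leydig (Scube3) and 5 were not called, where 37.5% of all genes were called. The acyltransferase gene Hhat, which attaches palmitate to the ligand, had 13.2, 15.9 and 10.6 CPM in Sertoli, Leydig and Interstitial, and the release transporter gene Disp1 26.6, 23.1 and 20.1 CPM. Scube1, of the family of secreted proteins that carry lipid-modified hedgehog, was 2.03-fold higher in Leydig (111 CPM) than in Interstitial (54.8 CPM; 1.02 ± 0.10, edgeR adjusted p 0.00012) and 2.32-fold higher in Sertoli (127 CPM) than in Interstitial. Scube2 (3.62, 2.67 and 1.61 CPM) had the same order, and Scube3 had 38, 28.1 and 43.5 CPM. The Scube3 difference between Leydig and Sertoli (-0.43 ± 0.10, edgeR adjusted p 0.0093) was not called without Sertoli replicate B (-0.29, edgeR adjusted p 0.0718). Hhat, at 0.27 in Leydig over Sertoli (edgeR adjusted p 0.111), was called with all 9 libraries (0.33, edgeR adjusted p 0.00412) and with library size alone (0.37, edgeR adjusted p 0.0441). Scube1 was not called between Leydig and Sertoli (-0.20 ± 0.10, edgeR adjusted p 0.164), except without Leydig replicate A (-0.36, edgeR adjusted p 0.00839). Against Interstitial, 3 of the 6 were higher in Leydig and 2 lower, and 4 were higher in Sertoli and 1 lower, where 45.1% and 61.8% of all genes were called. These counts were not firm: Scube2 in Leydig over Interstitial (0.74) kept its call in 11 of 17 alternatives and lost it without any 1 of the 4 libraries compared (0.64 to 0.80). In Interstitial over Sertoli, Hhat (-0.32) kept its call in 7 of 17 and lost it without Sertoli replicate B (-0.18), Leydig replicate B (-0.27) or either Interstitial replicate (-0.29 and -0.24). Disp1 (-0.41) lost its call there without Interstitial replicate B (-0.26), while Scube3 (0.19) was called without Sertoli replicate B (0.33). Among them Disp2 reached 0.342 to 2.42 CPM in Interstitial libraries and at most 0.271 CPM elsewhere.

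Of 5 further receptor and glypican genes, 3 were higher in Leydig than in Sertoli (Boc, Lrp2 and Gpc3), 1 was lower (Gpc4) and 1 was not called (Gpc6), beside 16.9% and 20.6% of all genes higher and lower. Lrp2, the gene of the endocytic receptor megalin, had 2.30, 12.9 and 57.6 CPM in Sertoli, Leydig and Interstitial. Gpc3, whose product competes with Patched for ligand, had 327, 610 and 544 CPM and was 1.87-fold higher in Leydig than in Sertoli (0.90 ± 0.07, edgeR adjusted p 1.48e-05). Gpc4 ran the other way, at 51.0, 28.2 and 14.5 CPM, and was 1.81-fold lower in Leydig than in Sertoli (-0.85 ± 0.09, edgeR adjusted p 8.57e-05). Gpc6 had 58.1, 60.3 and 46.3 CPM. In Leydig against Interstitial, 2 of the 5 were higher in Leydig (Gpc4 and Gpc6), 1 was lower (Lrp2) and 2 were not called, beside 22% and 23.2% of all genes. Gpc6 (0.38) was not called without Interstitial replicate B (0.30, edgeR adjusted p 0.0579), while Gpc3 (0.16, edgeR adjusted p 0.0695) was called in 5 of 17 alternatives. Markers of mesonephric epithelium (7 genes) were highest in Interstitial as Lrp2 was, at 8.65 to 9.87 CPM in Sertoli, 7.72 to 15.7 in Leydig and 69.2 to 88.0 in Interstitial. Their Sertoli and Leydig sums overlapped, while the Sertoli and Leydig libraries were apart for Lrp2. The mesothelial and macrophage sums given above rose from Sertoli over Leydig to Interstitial, as Lrp2 did. The part of any of these cell types in the level of Lrp2 was not tested.

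Other genes known as hedgehog targets in various tissues were higher in Leydig than in Sertoli in 6 of the 9 tested, lower in 1 and not called in 2, beside 16.9% and 20.6% of all genes. Foxf1 and Foxf2 did not pass the count filter and were at 0.252 CPM or less in every mean. Bmp4 had 2.76, 7.04 and 12 CPM in Sertoli, Leydig and Interstitial, and the Wnt inhibitor gene Sfrp1 57.6, 144 and 160 CPM. Both were higher in Leydig than in Sertoli, at 1.35 ± 0.17 (edgeR adjusted p 0.000373) and 1.32 ± 0.10 (edgeR adjusted p 1.91e-05). The survival gene Bcl2 had 42.1, 54.8 and 34.9 CPM, the same order of means as Hhip. It was higher in Leydig than in Interstitial (0.65 ± 0.07, edgeR adjusted p 0.000235). The other means in Sertoli, Leydig and Interstitial were 0.558, 1.06 and 2.80 CPM for the stroma factor gene Osr1, 0.135, 0.512 and 0.295 for Foxl1, and 33.0, 42.5 and 40.3 for the cilium gene Rab34. The growth genes Ccnd1 (71.8, 67.0 and 62.1 CPM), Ccnd2 (158, 149 and 124) and Mycn (62.2, 48.9 and 75.8) did not have the highest mean in Leydig. Of the 7 calls between Leydig and Sertoli, those of Bmp4, Sfrp1 and Bcl2 held in every alternative and the other 4 did not. Osr1 (0.92) kept its call in 10 of 17 alternatives and lost it without Sertoli replicate B (0.67) or either Leydig replicate (0.84 and 1.03). Foxl1 (1.92) kept its call in 8 of 14 and lost it without any 1 library but Sertoli replicate B (1.08 to 2.15). Rab34 (0.36) lost its call without either Sertoli replicate (0.37 and 0.36) or Leydig replicate A (0.20). Mycn (-0.35), the 1 lower in Leydig, kept its call in 8 of 17, and without any 1 library but Leydig replicate B it was lost (-0.41 to -0.22). In Leydig against Interstitial, 2 of the 9 were higher in Leydig, 3 in Interstitial and 4 were not called, beside 22% and 23.2% of all genes. Ccnd2 (0.27) was not called there without Interstitial replicate B (0.22), and Sfrp1 (-0.15) was called without Leydig replicate A (-0.29). In Interstitial against Sertoli, 3 were higher in each and 3 were not called, beside 32.7% and 29.1% of all genes. That tally turned on small differences. Ccnd1 (-0.21) kept its call in 8 of 17 alternatives and Bcl2 (-0.27) in 12, both losing it without Sertoli replicate B (-0.15 and -0.21) or either Interstitial replicate (-0.17 to -0.13 and -0.23 to -0.20), and Ccnd1 also without Leydig replicate B (-0.15). Mycn (0.28) and Rab34 (0.29), not called, were called in 10 of 17 alternatives each.

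Of 20 genes of the intracellular steps, 4 were higher in Leydig than in Sertoli (20%), 2 lower (10%) and 14 not called, shares that compare with 16.9% and 20.6% over all genes. The largest differences were in Evc (1.03 ± 0.13, edgeR adjusted p 0.000279), whose product works with Smoothened at the base of the cilium, and Kif7 (0.80 ± 0.13, edgeR adjusted p 0.0016), the gene of a ciliary kinesin that regulates Gli proteins. Ulk3, a kinase gene, was lower in Leydig (-0.42 ± 0.13, edgeR adjusted p 0.0309), a call lost in each of the 6 fits that left out a library (-0.47 to -0.37). Against Interstitial, 9 of the 20 were higher in Leydig (45%, against 22% of all genes) and 11 were not called. The 3 largest differences were in Prkaca (0.43 ± 0.07, edgeR adjusted p 0.00111), the kinase gene Dyrk2 (0.36 ± 0.09, edgeR adjusted p 0.0113) and Prkar1a (0.34 ± 0.06, edgeR adjusted p 0.00254). Prkaca encodes a catalytic subunit of protein kinase A and Prkar1a a regulatory subunit. Prkar1a had 180, 165 and 131 CPM in Sertoli, Leydig and Interstitial. Dyrk2 was not called without Leydig replicate A (0.30) or Interstitial replicate A (0.29). In Interstitial against Sertoli, 3 of the 20 were higher in Interstitial (15%), 8 in Sertoli (40%) and 9 were not called. The shares over all genes were 32.7% and 29.1%. Protein kinase A phosphorylates Gli proteins and so restrains the pathway, but its activity was not measured and cannot be read from these subunit genes.

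Of 22 genes of the primary cilium, 8 were higher in Leydig than in Sertoli, 1 lower and 13 not called. Ttc26, an intraflagellar transport gene, was higher in Leydig (0.70 ± 0.11, edgeR adjusted p 0.000873) and the transition zone gene Tctn2 lower (-0.92 ± 0.12, edgeR adjusted p 0.000316). Ift57, another transport gene, was higher in Leydig (0.53 ± 0.15, edgeR adjusted p 0.0226), but not without Sertoli replicate B (0.41) or Leydig replicate A (0.47). In Leydig against Interstitial, 1 was higher in Leydig, 6 in Interstitial and 15 were not called, led by the basal body gene Ofd1 (-0.51 ± 0.09, edgeR adjusted p 0.00157). B9d1 (-0.45 ± 0.13, edgeR adjusted p 0.0239) lost its call without Leydig replicate A (-0.41) or Interstitial replicate A (-0.34). Ift57 (-0.44 ± 0.14, edgeR adjusted p 0.0337) lost its call without Leydig replicate A (-0.49), Leydig replicate B (-0.39) or Interstitial replicate A (-0.31). In Interstitial against Sertoli, 11 were higher in Interstitial and 3 in Sertoli. The cilium list thus had 36.4% higher in Leydig and 4.55% higher in Sertoli, where all genes had 16.9% and 20.6%, and its median log2 difference was 0.11. For Leydig against Interstitial the shares were 4.55% and 27.3% (22% and 23.2% of all genes). For Interstitial against Sertoli they were 50% and 13.6% (32.7% and 29.1% of all genes).

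The authors' deposited tables of limma results hold only genes with a fold change of at least 2, and they list 5 of the 9 genes in at least 1 comparison. For Dhh the authors' deposited tables give log2 fold changes of -1.818 in Leydig against Sertoli, 2.877 in Leydig against Interstitial and -4.695 in Interstitial against Sertoli. For Gas1 the authors' deposited tables give 1.974 in Leydig against Sertoli and 2.715 in Interstitial against Sertoli. For Hhip the authors' deposited tables give 1.98 in Leydig against Interstitial and -1.2 in Interstitial against Sertoli. Gli1 (1.354) and Gli2 (1.297) are in the authors' deposited table for Leydig against Sertoli only. Each has the sign of the difference given above.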

How the data were processed

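RNA of 3 sorted populations was measured in 3 libraries each. Per the file headers, the deposited table holds unnormalised counts of reads for every gene in each of the 4 lanes of a library. The submitters' processing notes name TopHat2 2.0.6, mm10 and HTSeq. Which annotation the authors counted against, and whether strand was used, is not given in these sources. How reads over genes that overlap were assigned is therefore not fully known. The summary line for ambiguous reads, which count for no gene, held 0.62 to 0.77% of a library's reads. The authors' limma tables hold log2 fold changes, scores (moderated t and log odds), p-values and adjusted p-values per the file headers. The 5 HTSeq summary lines were left out of library sizes (reads outside genes were 32.23 to 38.52%).

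Lanes were summed. Symbols, positions and exon lengths came from GENCODE M21 (GRCm38, also called mm10). Replicates A and B of all 3 populations were fitted together with edgeR 4.0.16 (glmQLFit, glmQLFTest, TMM, filterByExpr) in R 4.3.3, with 3 residual degrees of freedom and Benjamini-Hochberg adjustment over 18048 genes. The common biological coefficient of variation was 0.0871. Levels use the same TMM scaling, extended to replicate C; SDs are over A and B. For genes at least 2-fold apart between A and B, C lay between them in 21 of 21 (Sertoli), 63 of 65 (Leydig) and 18 of 22 (Interstitial) genes. This cannot decide whether C is the mixture, since a wide gap could also hold a value of other origin. Among the hedgehog genes, C lay between A and B for 5 in Sertoli, 6 in Leydig and 5 in Interstitial. Their A and B values were at most 1.25-fold apart. Replicate letters shared deviations weakly (correlations 0.248, 0.1 and 0.018), so they were not used to pair libraries.

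Depth was 33123254 to 39244060 reads in genes. The floor of 3 reads covers counting error alone, since reads copied by PCR count repeatedly. All 9 hedgehog genes were described. Beside them, the genes of the ligand, receptor and target lists were given, and the 3 with the largest difference among the called genes of the longer transduction and cilium lists. Members, lists and tests were chosen with earlier results of these data known. Each comparison was refitted under 17 alternatives, including limma 3.58.1 voom and DESeq2 1.42.0, and the fit was tested on simulated data. A few genes of the lists are not reported here.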

Additional observations from a re-analysis of the deposited data

How the results depend on the processing

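Over 27 member results and 17 alternatives each, 444 of 459 values kept direction and side of the threshold, 6 fell below it, 3 passed it and 6 changed sign. All calls of Dhh, Ptch1, Gli2, Gli3, Hhip and Gas1 held in every alternative, and the lost calls of Smo and Gli1 stand in the report. The 1 count of hedgehog calls that moved by over 1.5 times was that higher in Interstitial than in Leydig, 2 with all 9 libraries in place of 1, because Gli3 was added. Signs turned only in values that were not called. With library size alone, Leydig over Sertoli was 0.03 for Cdon, 0 for Ccnd1 and 0.02 for Ccnd2, Leydig over Interstitial was -0.01 for Cdon and -0.04 for Boc, and Interstitial over Sertoli was 0.05 for Cdon. With lanes 1 and 2, Cdon was 0.02 in Leydig over Sertoli, and Boc -0.01 in Leydig over Interstitial. With all 9 libraries, Ihh was -0.06 in Leydig over Sertoli. Leaving out 1 library at a time gave -0.23 to 0.01 for Ptch1, -0.12 to 2.01 for Ihh and -0.03 to 0.14 for Gpc6 in Leydig over Sertoli. In Leydig over Interstitial it gave -0.02 to 0.1 for Cdon, -0.12 to 0.14 for Boc and -0.09 to 0.21 for Rab34. The cause was not tested. Library size alone moved the median of all genes from -0.005 to 0.097 in Leydig over Sertoli and from 0.043 to 0.211 in Interstitial over Sertoli.

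With the replicate letter as a replicate block, 7839, 9364 and 12013 genes were called in Leydig against Sertoli, Leydig against Interstitial and Interstitial against Sertoli, in place of 6762, 8146 and 11155, and the counts of hedgehog calls were the same. Depth limits Shh, Ihh, Disp2, Foxf1 and Foxf2, which rest on few reads.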
